A study of Mus musculus with 15 samples.

Results

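Aminoacyl-tRNA synthetases were described in mouse TTF cells (TTF usually stands for tail-tip fibroblast) that were wild type or knockout for Sirt7, which encodes a nuclear deacylase of the sirtuin family. The genes were chosen by symbol from the table of counts per gene: a one-letter amino acid code followed by "ars", with or without a final 1 or 2, together with Eprs, Farsa and Farsb. The rule found 37 of the 55487 genes in the table. A final 2 marks the mitochondrial enzyme of a pair, which split them into 20 cytosolic and 17 mitochondrial genes, and all 37 passed the filter on low counts. The symbol rule does not follow protein targeting: Gars and Kars are known to supply both compartments, and they are kept here with the cytosolic genes.

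The series holds 15 samples of polyA RNA, all labelled as TTF cells of female C57BL6/CAST hybrid mice. The deposited gene table covers 6 of them, 3 wild type (labelled S7WT_TTF) and 3 SIRT7-KO, named here WT 1, WT 2, WT 3, KO 2, KO 9 and KO 22. The numbers 2, 9 and 22 are those of the knockout lines c2, c9 and c22 in the titles. An earlier set of 3 SIRT7-KO libraries has no line numbers, so the columns could be those libraries, which have the same genotype. The wild-type titles have the style of that earlier set, numbered as replicates, unlike the titles of the lines. If the columns are the numbered lines, genotype and set of samples cannot be told apart. The other groups, SIRT7-KO lines with SIRT7-WT added back and lines named SIRT7-HY, were not analysed here. The sources used here do not give age, treatment, the knockout allele or the number of mice behind each line. The titles separate the knockout lines by number, but nothing in the labels says that the wild-type libraries came from separate cultures, or those of either group from separate mice, so the spread that the p-values measure may be technical in part.

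A synthetase joins its amino acid to the matching tRNAs, the step that fixes the genetic code during translation. Eprs serves both glutamate and proline. Animal cells keep a cytosolic set and a mitochondrial set, nearly all encoded by separate nuclear genes, and several cytosolic enzymes sit together in the multisynthetase complex. Uncharged tRNA is sensed by the kinase Gcn2, and transcription factor Atf4, made when its substrate eIF2 is phosphorylated, is known to raise transcription of many cytosolic synthetase genes along with amino acid transporters and biosynthetic enzymes.

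Total counts lay between 61065582 and 61506413 per library. Sirt7 itself had 833, 1107 and 598 counts in wild type and 512, 694 and 787 in KO 2, KO 9 and KO 22. The groups overlapped, and the log2 fold change of -0.31 (SE 0.27) had an adjusted p of 0.515 (edgeR's quasi-likelihood test, Benjamini-Hochberg over 16678 genes). Of its coding transcripts, Sirt7-201 was estimated at 53, 58 and 159 counts in wild type and at 2, 0 and 0 in KO 2, KO 9 and KO 22, while Sirt7-207 had 118, 11 and 68 in wild type and 60, 129 and 0 in knockout. Where the knockout allele alters the gene is not given, so the gene-level count is no check of it. The knockout libraries differed more among themselves, with a biological coefficient of variation of 0.378 against 0.135 among wild-type libraries. Of 10 fibroblast markers, all were detected, with a summed level of 16740 to 16970 CPM (counts scaled to 1000000 per library) in wild type and 25720 to 32570 CPM in knockout. Of 4 skeletal muscle markers, Myod1 and Myog were at 0 in all 6 libraries, and the sum, mostly Acta1, was 18.1 to 21.7 CPM in wild type and 49.3 to 112 CPM in knockout. The 3 adipocyte markers, led by Fabp4, summed to 14.7 to 18.6 CPM in wild type and 3.81 to 39.99 CPM in knockout. The keratinocyte, endothelial and blood lists each summed to at most 5.57, 5.56 and 6.19 CPM in any library and the melanocyte and Schwann list to at most 0.179 CPM, with Cdh5 (endothelium), Adgre1 and Cd3e (blood), and Mlana and Tyr (melanocytes) at 0 in all 6 libraries. The part of these marker differences in the results below was not tested, and in bulk samples fewer cells of a type and less RNA per cell cannot be told apart.

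The cytosolic synthetases were expressed well above their mitochondrial counterparts. Levels per transcript length were computed as TPM, a scale that divides counts by transcript length and sums to 1000000 per library, from the deposited estimates, and every one of the 20 cytosolic genes had a higher wild-type mean than every one of the 17 mitochondrial genes. The median of the wild-type means was 147 TPM for cytosolic and 12.4 TPM for mitochondrial genes. Nars, for asparagine, was highest at 306 ± 10.9 TPM (SD, n = 3), followed by Gars (glycine) at 260 ± 6.17 and Kars (lysine) at 245 ± 5.73 TPM, with no overlap between successive genes of these 3. Then came Mars1 (methionine) at 214 ± 3.97 TPM, above Sars (serine) at 200 ± 7.37 and Aars (alanine) at 196 ± 2.33 TPM, which overlapped each other. This order sums all annotated transcripts and is not one of coding RNA. Coding transcripts took a wild-type mean of 64.6% of Nars counts and 23.2% of Mars1 counts. For Gars, Kars, Sars and Aars they took 99.03% or more.

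At the low end of the cytosolic set, Farsb, the beta subunit of the phenylalanine enzyme, had 59.9 ± 3.80 TPM and Wars (tryptophan) 41.0 ± 8.55 TPM. Farsa, the alpha subunit, stood at 90.5 ± 6.0 TPM. The enzyme holds both subunits in equal number, but these levels sum all annotated transcripts, coding or not. Coding transcripts took 18.9%, 70.0% and 5.46% of Farsa counts in WT 1, WT 2 and WT 3. For Farsb they took 58.4%, 98.7% and 99.0%, so the levels do not compare coding RNA of the subunits. Tars2 (threonine) led the mitochondrial genes at 35.97 ± 2.75 TPM and overlapped Wars. Cars2 (cysteine) followed at 25.1 ± 0.882 TPM, and Mars2 was lowest at 1.68 ± 0.202 TPM. In the mitochondrial order, the neighbours Yars2, Hars2, Sars2 and Rars2 overlapped each other in turn, as did Pars2, Nars2 and Wars2.

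**Figure D1:**
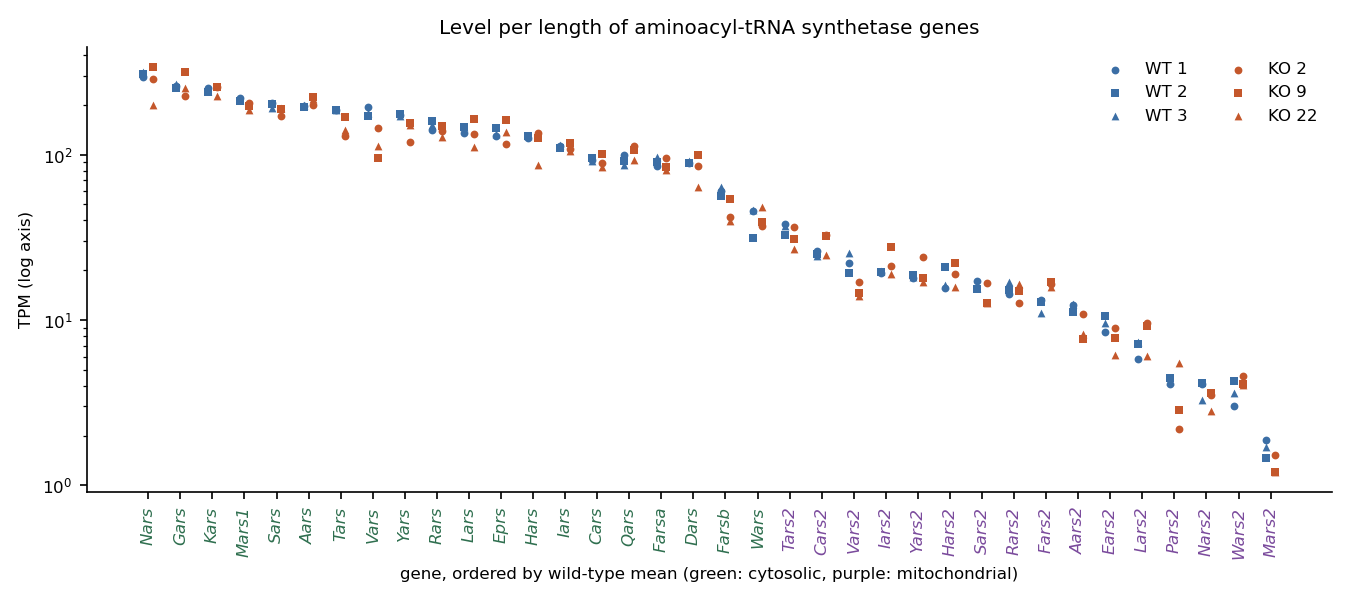
Level in TPM (log axis) of synthetase genes in each of the 6 libraries, ordered by wild-type mean. The cytosolic genes run from 306 TPM for Nars to 41.0 TPM for Wars, and the mitochondrial genes from 35.97 TPM for Tars2 to 1.68 TPM for Mars2.

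Counts of the whole cytosolic set took up 0.519%, 0.520% and 0.519% of each wild-type library's total, and 0.461%, 0.497% and 0.418% in KO 2, KO 9 and KO 22. The 3 wild-type values lay close together and above all 3 knockout values. The mitochondrial set held 0.0331%, 0.0333% and 0.0338% in wild type and 0.0337%, 0.0334% and 0.0267% in KO 2, KO 9 and KO 22. Only KO 22 stood below wild type there. These are descriptions of sums that the highest genes dominate.

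Knockout was compared with wild type to ask what loss of SIRT7 does to these genes. At an adjusted p under 0.05, edgeR called 0 of the 37 synthetases, against 6.73% of all 16678 genes tested. At an unadjusted p under 0.05 it found 7 of 37 (18.9%), against 26.3% of all genes; all 7 were lower in knockout, where 12.5% of all genes lay. DESeq2 called 5 of 37, against 15.3% of all genes: Vars, Farsb and Tars among the cytosolic genes and Tars2 and Vars2 among the mitochondrial ones, all lower. limma-voom called 0 of 37 (7 at an unadjusted p under 0.05), against 6.61% of all genes, and 0 of 37 (8 at an unadjusted p under 0.05) with a weight per group, against 7.73%.

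Most estimates lay below 0, but they were small. Of the 37 genes, 27 (73.0%) had a log2 fold change below 0, against 48.4% of all genes: 18 of 20 cytosolic and 9 of 17 mitochondrial. The median log2 fold change was -0.15 for cytosolic, -0.16 for mitochondrial and 0.02 for all tested genes. The largest difference in size was 0.67 on the log2 scale, and the 95% interval lay within -1 and 1 for 34 of the 37 genes. Without KO 22 the medians were -0.04 for cytosolic and -0.06 for mitochondrial genes, nearer 0 than with it.

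**Figure D2:**
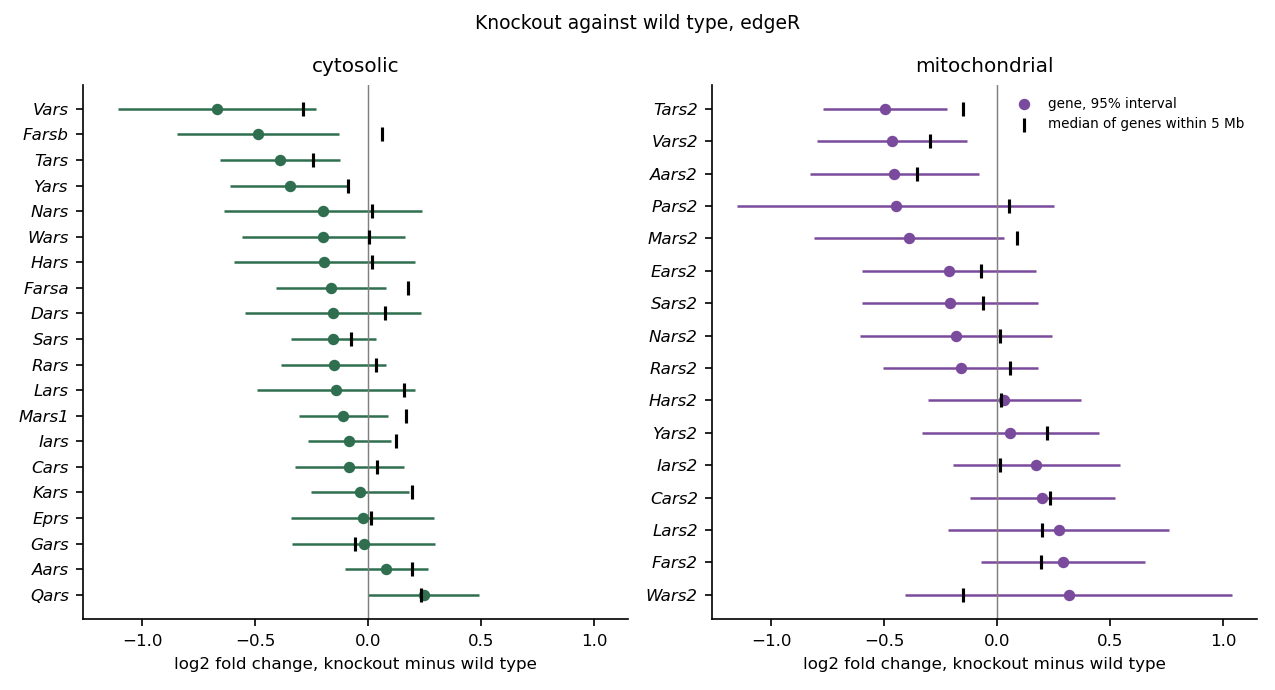
Log2 fold change of synthetase genes (points) with its 95% interval from edgeR, and the median log2 fold change of the tested genes within 5 Mb on each side (black ticks). Of the points, 18 cytosolic and 9 mitochondrial ones lie below 0, and 7 intervals, all below 0, do not hold 0.

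On TMM-normalised CPM, the scale of the edgeR fit, 8 genes had all knockout libraries below all wild-type libraries (21.6%, against 18.2% of all genes). They were Vars, Farsb, Tars, Yars and Sars in the cytosolic set and Tars2, Vars2 and Aars2 in the mitochondrial set. Qars (glutamine) was the 1 gene with all knockout libraries above (2.70%, against 17.5% of all genes). On CPM without that scaling Mars1, Iars and Nars2 also had all knockout libraries below wild type. The share of all genes on that scale was not computed.

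Vars (valine; chr17:35000987-35016322, plus strand) showed the largest difference. Its level was 385, 338 and 356 CPM in wild type and 289, 176 and 200 CPM in KO 2, KO 9 and KO 22. The groups did not overlap, and KO 9 was lowest. The log2 fold change was -0.67 (SE 0.18) with an edgeR adjusted p of 0.0791. Vars2 (chr17:35655634-35667592, minus strand), its mitochondrial counterpart, lies on the same chromosome. It had 28.4, 27.0 and 30.8 CPM in wild type and 24.2, 18.5 and 18.5 CPM in KO 2, KO 9 and KO 22, again lowest in KO 9 and KO 22. Its log2 fold change was -0.46 (SE 0.14), edgeR adjusted p 0.0952. Coding transcripts of Vars2 overlapped, at 828, 401 and 853 counts in wild type and 920, 678 and 582 in KO 2, KO 9 and KO 22. Its other transcripts summed to 909, 1259 and 1043 counts in wild type and 560, 461 and 552 in knockout.

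Aars2 (chr17:45506841-45520843, plus strand), the mitochondrial alanine enzyme, is also on chromosome 17. It stood at 21.98, 20.7 and 22.4 CPM in wild type and 19.1, 13.5 and 13.9 CPM in KO 2, KO 9 and KO 22, with a log2 fold change of -0.46 (SE 0.16) and an edgeR adjusted p of 0.129. In Vars, Vars2 and Aars2 alike, KO 2 was the knockout library nearest wild type. The median log2 fold change of all tested genes on chromosome 17 was -0.29. Within 5 Mb of Vars, Vars2 and Aars2 the median was -0.29, -0.30 and -0.35. The chromosome's median against the wild-type mean was -0.16 in KO 2, -0.39 in KO 9 and -0.21 in KO 22 (log2), so KO 2 was also the library nearest wild type for the chromosome as a whole. The part of the surrounding genes in the difference of these 3 was not tested.

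Tars2 (chr3:95739976-95760206, minus strand) had the smallest p of the family. It stood at 47.5, 44.03 and 48.6 CPM in wild type and 37.1, 30.6 and 29.6 CPM in KO 2, KO 9 and KO 22. All 3 knockout libraries were below wild type. The log2 fold change was -0.50 (SE 0.11), edgeR adjusted p 0.0537, and the median of genes within 5 Mb was -0.15. Tars (chr15:11382301-11399665, minus strand), the cytosolic threonine enzyme, had 419, 415 and 412 CPM in wild type and 282, 357 and 290 CPM in KO 2, KO 9 and KO 22. Wild type varied by under 10 CPM, while KO 9 lay between the other knockout libraries and wild type. The log2 fold change was -0.39 (SE 0.11), edgeR adjusted p 0.0846, beside a median of -0.25 for genes within 5 Mb.

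Farsb (chr1:78417975-78488897, minus strand) had 60.5, 56.7 and 65.5 CPM in wild type and 40.1, 51.6 and 35.9 CPM in KO 2, KO 9 and KO 22. KO 9 came nearest to wild type. The log2 fold change was -0.49 (SE 0.15), edgeR adjusted p 0.102. Here the genes within 5 Mb had a median of 0.06, so Farsb lay apart from its surroundings. Its partner Farsa overlapped between groups, at 74.8, 80.1 and 83.3 CPM in wild type and 78.0, 66.8 and 63.2 CPM in KO 2, KO 9 and KO 22, with a log2 fold change of -0.16 (edgeR adjusted p 0.352).

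Yars (chr4:129189760-129219607, plus strand), for tyrosine, had 275, 273 and 268 CPM in wild type and 182, 229 and 215 CPM in KO 2, KO 9 and KO 22. KO 2 was lowest. The log2 fold change was -0.35 (SE 0.11), edgeR adjusted p 0.109. Sars differed less, at 386, 378 and 361 CPM in wild type and 319, 337 and 332 CPM in knockout, a log2 fold change of -0.15 (edgeR adjusted p 0.270). Qars, the 1 gene above wild type in every knockout library, had 82.2, 80.9 and 81.7 CPM in wild type and 109, 90.3 and 85.5 CPM in KO 2, KO 9 and KO 22. Its log2 fold change of 0.25 (edgeR adjusted p 0.191) was close to the median of 0.23 for genes within 5 Mb. Most Qars counts were assigned to Qars-218, annotated as a retained intron. This transcript had 2899, 2880 and 3125 counts in wild type and 4297, 3370 and 3616 in KO 2, KO 9 and KO 22. The coding transcripts of Qars overlapped between groups, at 451, 598 and 495 counts in wild type and 763, 518 and 329 in knockout.

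**Figure D3:**
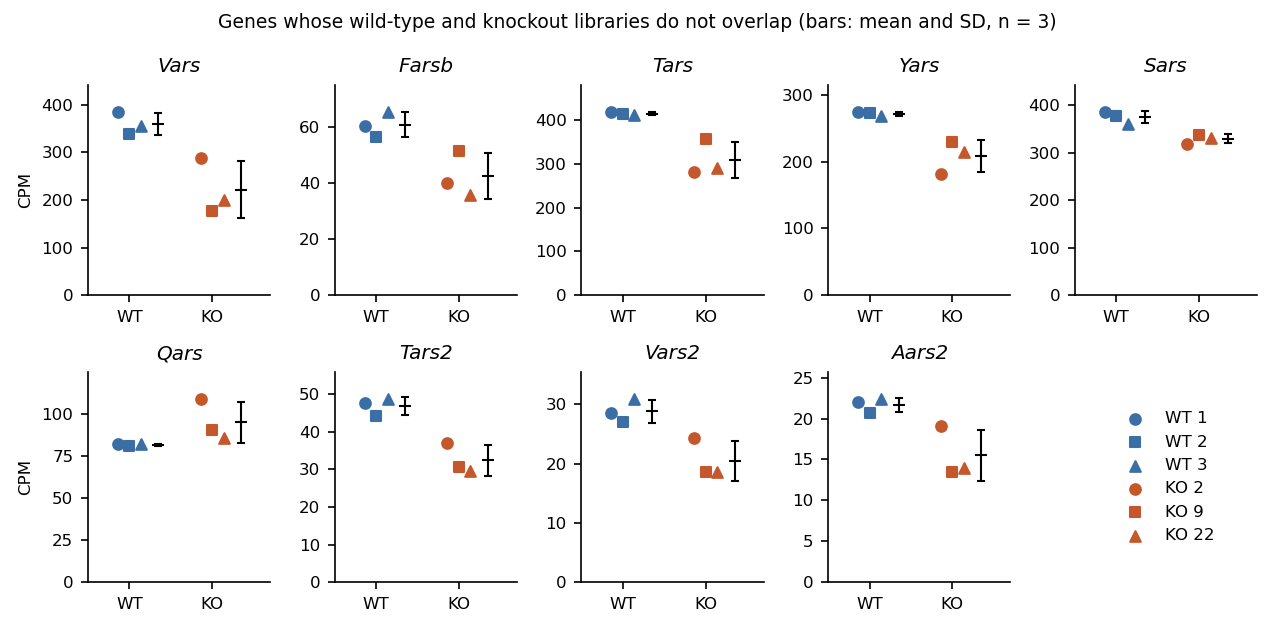
CPM by library for the 9 genes whose groups did not overlap on TMM-normalised CPM, each panel starting at 0, with the mean and SD of 3 libraries beside the points. In 8 panels all knockout points lie below the wild-type points, and for Qars all lie above.

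Among the other mitochondrial genes, Pars2 (proline) was split between the knockout lines. It had 4.41, 4.59 and 4.86 CPM in wild type, 2.31 and 2.90 CPM in KO 2 and KO 9, and 4.67 CPM in KO 22. KO 22 lay within the wild-type range, and the log2 fold change of -0.45 (SE 0.29) had an edgeR adjusted p of 0.379. Positive estimates included 0.32 for Wars2, 0.29 for Fars2 and 0.27 for Lars2 (leucine), and none of these passed the test.

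The knockout lines did not move together. On CPM without TMM scaling, KO 22 was the lowest of the 6 libraries for 21 of the 37 genes. KO 2 was lowest for 8 and KO 9 for 4, and KO 22 was the highest for 0. The median log2 difference from the wild-type mean was -0.08 in KO 2, -0.05 in KO 9 and -0.22 in KO 22, and 31 genes lay below the wild-type mean in KO 22. The coefficient of variation of CPM had a median of 0.0434 over the 37 genes in wild type and 0.167 in knockout, and it was larger in knockout for 34 genes. Over the whole table the biological coefficient of variation was also larger in knockout, 0.378 against 0.135. The counts of genes in this paragraph were made for the synthetases only, so they are not shown to be particular to them.

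The cytosolic genes of asparagine, histidine, leucine and aspartate were lowest in KO 22. Nars had 411, 430 and 425 CPM in wild type, 389 and 436 CPM in KO 2 and KO 9, and 255 CPM in KO 22. Hars had 140, 144 and 144 CPM in wild type, 146 and 132 CPM in KO 2 and KO 9, and 89.6 CPM in KO 22. Lars stood at 262 to 298 CPM in the wild-type libraries, at 257 and 298 CPM in KO 2 and KO 9, and at 200 CPM in KO 22. Nars, Hars and Lars are on chromosome 18, whose genes had a median of -0.18 (log2) in KO 22 against the wild-type mean, and 0.06 and 0.14 in KO 2 and KO 9. Dars, on chromosome 1, had 109, 109 and 111 CPM in wild type, 102 and 116 CPM in KO 2 and KO 9, and 72.4 CPM in KO 22, while genes within 5 Mb of it had a median of 0.00 in KO 22.

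Gene by gene, the differences went with those of neighbouring genes. Over the 37 genes, Pearson's r between a gene's log2 fold change and the median of the tested genes within 5 Mb was 0.623; genes on 1 chromosome share neighbours and all share libraries, so this is a description. Of the 37 genes, 29 lay below the median of their neighbourhood, 18 of 20 cytosolic and 11 of 17 mitochondrial, by a median of -0.17 over all 37. With each library's chromosome median taken out, limma called 2 of 37, Farsb and Yars, both lower, against 5.65% of all genes.

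Leaving out 1 knockout library changed which genes were called. Without KO 2, edgeR called Vars, Tars2, Vars2 and Aars2, against 9.72% of all genes. Without KO 9 it called Farsb and Tars, against 7.37%, and without KO 22 only Pars2, against 14.5%. All of these were lower in knockout. Without WT 1, WT 2 or WT 3 it called 0 of 37, with 5, 8 and 4 at an unadjusted p under 0.05. Shares of all genes at that unadjusted p are not given for these fits, so the counts have no background beside them. With 1 library left out, the fewest calls over the whole table also came from a fit without a wild-type library. The 0 is therefore not shown to be particular to the synthetases.

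The ratio of the mitochondrial to the cytosolic gene for the same amino acid was taken as a log2 ratio of TPM. It was lower in every knockout library than in every wild-type library for Aars2 to Aars, by -0.55 on average. Aars itself overlapped between groups, at 619, 619 and 627 CPM in wild type and 618, 673 and 637 CPM in KO 2, KO 9 and KO 22. Ratios that were higher in every knockout library included Fars2 to Farsb (0.83), Fars2 to Farsa (0.48), Yars2 to Yars (0.37), Lars2 to Lars (0.36), Cars2 to Cars (0.26) and Iars2 to Iars (0.22). For Vars2 to Vars, where both genes lie on chromosome 17, it overlapped between groups and differed by 0.10. The ratio also overlapped for Ears2 and Pars2, each set against Eprs. The same held for Hars2, Mars2, Nars2, Rars2, Sars2, Tars2 and Wars2 against their cytosolic genes. These ratios are descriptions with no test. They sum all annotated transcripts, coding or not, and the share of other gene pairs without overlap was not computed.

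The estimates per annotated transcript showed a different make-up of Tars2 in the knockout libraries. Tars2-218, annotated as a retained intron, had 1778, 1801 and 1880 counts in wild type and 570, 496 and 678 in KO 2, KO 9 and KO 22. The coding transcript Tars2-201 had 119, 114 and 106 counts in wild type and 684, 497 and 377 in KO 2, KO 9 and KO 22. A second coding transcript, Tars2-202, had 167, 174 and 0 counts in wild type and 564, 521 and 381 in knockout. Coding transcripts made up 23.5% ± 3.86 of Tars2 counts in the wild-type libraries and 58.3% ± 5.37 in the knockout libraries (SD, n = 3), without overlap. While the count of the whole gene was lower in knockout, its coding transcripts summed to 767, 676 and 572 counts in wild type and 1413, 1134 and 945 in knockout.

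**Figure D4:**
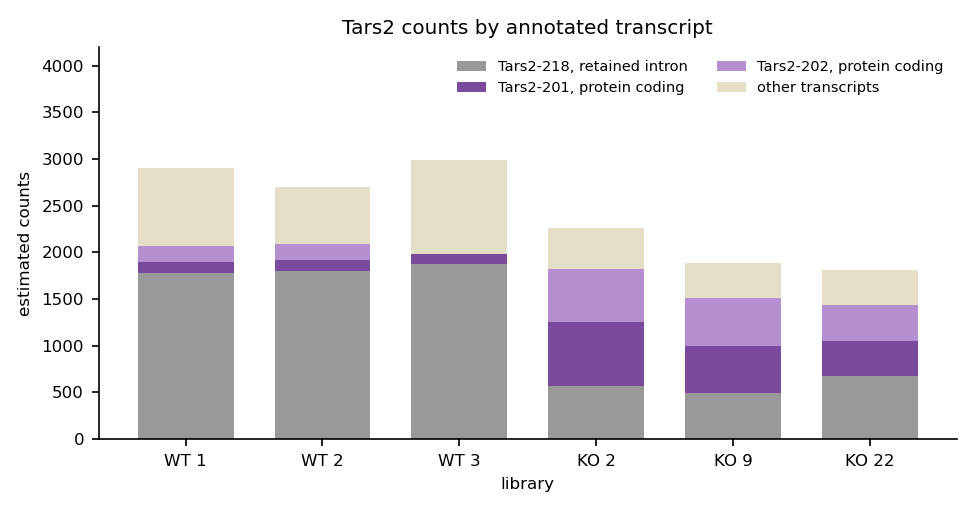
Estimated counts of Tars2 by annotated transcript in each library, stacked. The retained-intron transcript Tars2-218 holds 1778 to 1880 counts in wild type and 496 to 678 in knockout, while the coding Tars2-201 holds 106 to 119 and 377 to 684.

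Tars differed in 1 line. Its transcript annotated for nonsense-mediated decay, Tars-207, had 8469, 8666 and 8749 counts in wild type, 5339 and 5519 in KO 2 and KO 22, and 28 in KO 9. The coding Tars-201 had 17018, 16700 and 16451 counts in wild type and 11810, 21844 and 12151 in KO 2, KO 9 and KO 22, so KO 9 was above wild type for it. Such splits are estimates from coverage of overlapping transcripts. For Farsa the coding share was 18.9%, 70.0% and 5.46% in the 3 wild-type libraries, a spread without any change of genotype. In 23 of the 37 genes at least 90% of counts were assigned to coding transcripts in every library, and 3 genes, Tars2, Farsb and Ears2, had mean coding shares that differed by over 20 points between groups. Farsb and Ears2 overlapped between groups. Without overlap but by fewer points, the mean coding share rose from 38.9% to 57.7% in Vars2 and from 27.8% to 40.95% in Cars2. It rose from 65.7% to 78.9% in Tars and fell from 64.6% to 57.2% in Nars. Hars, Iars, Mars1 and Yars, also without overlap, differed by at most 2.17 points. No test was made on transcripts.

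Part of the reads could be assigned to genome 1 or genome 2 of the hybrid; the strain behind each is not named in the sources used here. The genome 1 share was tested for 35 of the 37 genes, those with enough assigned reads, which Vars did not have. edgeR called 16 of the 35 (45.7%) at an adjusted p under 0.05, against 23.0% of 12984 genes tested. The genome 1 share rose for 8: Dars, Eprs, Farsb, Iars2 and Mars2 on chromosome 1, Sars on chromosome 3, Gars on chromosome 6 and Mars1 on chromosome 10. It fell for the other 8: Cars, Ears2, Nars2 and Sars2 on chromosome 7, Aars, Cars2 and Kars on chromosome 8, and Yars2 on chromosome 16.

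Gars and Cars show the size of these shifts. The genome 1 share of Gars was 38.8%, 39.6% and 38.8% in wild type and 68.7%, 68.4% and 66.1% in KO 2, KO 9 and KO 22. Its log2 allelic ratio rose by 1.71 (SE 0.11, edgeR adjusted p 0.00144), and that of genes within 5 Mb went from 35.8% to 64.0%. The share of Cars was 61.8%, 61.2% and 59.5% in wild type and 33.7%, 32.8% and 31.3% in knockout. It fell by 1.68 on the log2 scale (SE 0.13, edgeR adjusted p 0.00144), while genes within 5 Mb went from 61.7% to 34.7%. In both cases the gene total did not pass the test, at log2 fold changes of -0.02 for Gars and -0.08 for Cars.

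For all 16 genes the neighbourhood within 5 Mb moved the same way. Over the 35 genes, r between the change of a gene's share and that of its neighbourhood was 0.948, a description over genes that share libraries and chromosomes. With the neighbourhood's share taken out in each library, an alternative chosen after these shifts were seen, limma called 0 of 35, against 0.556% of all genes. The smallest adjusted p was then 0.144, and 3 of 35 had an unadjusted p under 0.05. The share of all genes at that unadjusted p is not given for this fit. Chromosome shares lay close together among wild-type libraries. The knockout lines lay close to each other on some chromosomes, as on chromosome 7 (31.6%, 31.9% and 31.7% in KO 2, KO 9 and KO 22), and apart on others, as on chromosome 15 (41.2%, 55.5% and 34.96%). Line and genotype cannot be told apart here.

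Single lines also stood apart. The share of Rars was 43.6%, 44.9% and 44.6% in wild type and 44.1% and 44.7% in KO 2 and KO 22, but 17.4% in KO 9. In KO 9 genes within 5 Mb of Rars had 23.8% and chromosome 11 as a whole had 31.6%. The share of Tars was 56.8%, 57.9% and 57.3% in wild type, 58.9% in KO 9, 41.8% in KO 2 and 34.7% in KO 22. Genes within 5 Mb of Tars had 60.5%, 45.5% and 39.4% in KO 9, KO 2 and KO 22. KO 22, in which the Hars level was low, had a Hars share of 61.7%, against 40.6% to 41.8% in wild type and 44.4% and 39.3% in KO 2 and KO 9. Genes within 5 Mb of Hars went the same way, with 59.0% in KO 22 and 43.4% and 43.8% in KO 2 and KO 9.

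In 4 genes the share in wild type lay over 15 points from that of the genes within 5 Mb. Farsa had 6.08% ± 1.83 (SD, n = 3) beside 30.1% around it, and 5.45% ± 0.520 in knockout. Yars had 24.2% ± 4.62 beside 49.4%. Ears2 had 15.3% ± 2.67 beside 53.1% in wild type and 2.57% ± 1.93 beside 28.8% in knockout. Lars2 was the 1 gene above its surroundings, at 58.8% ± 3.93 beside 42.3%.

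**Figure D5:**
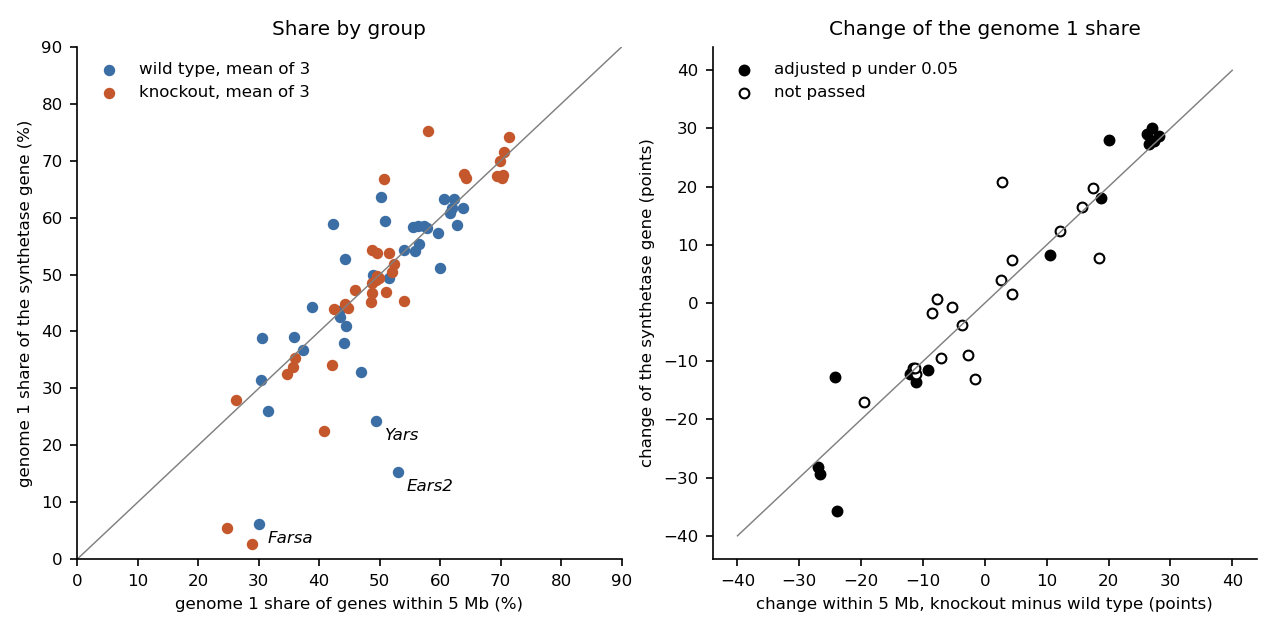
Left, genome 1 share of each synthetase gene against that of genes within 5 Mb, as means of 3 libraries per group; right, the change from wild type to knockout, filled where the adjusted p was under 0.05. Farsa, Yars and Ears2 lie far below the diagonal at left, and at right the changes follow the neighbourhood, r 0.948 over 35 genes.

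Genes that work with the synthetases were read from lists. Of 3 scaffold genes of the multisynthetase complex, 0 passed edgeR's test (1 at an unadjusted p under 0.05, Aimp1, log2 fold change -0.23, adjusted p 0.165). Of 11 genes for charging helpers and editing, 0 passed (3 at an unadjusted p under 0.05, where 26.3% of all genes lay). Sepsecs, which completes selenocysteine on its tRNA, had a log2 fold change of -0.55 (adjusted p 0.132), and Gatc, a subunit of the mitochondrial glutamyl-tRNA amidotransferase, -0.42 (adjusted p 0.129). Aarsd1, which encodes an editing protein related to Aars, was above wild type in all 3 knockout libraries, with a log2 fold change of 0.41 (adjusted p 0.140). Of 10 mitochondrial translation factors 0 passed (2 at an unadjusted p under 0.05). DESeq2 and limma-voom also called 0 in each of these 3 lists. Of 5 cytosolic elongation factors 1 fell: Eef1g, a subunit of the factor that reloads eEF1A, went from 1334 ± 24.2 to 938 ± 106 CPM (SD, n = 3), a log2 fold change of -0.48 (SE 0.10, edgeR adjusted p 0.0394).

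The Atf4 arm held 4 genes that fell and 0 that rose among 23 tested, where edgeR called 3.19% of all genes lower and 3.54% higher, with a median log2 fold change of -0.24 beside 0.02 for all genes. Atf4 itself had 614, 612 and 607 CPM in wild type and 310, 367 and 414 CPM in KO 2, KO 9 and KO 22, a log2 fold change of -0.71 (SE 0.13, edgeR adjusted p 0.0306). Psat1 and Phgdh, enzymes of serine synthesis, fell by 0.73 and 0.61 on the log2 scale (adjusted p 0.0076 and 0.0226). The glutamine transporter gene Slc1a5 fell by 0.49 (adjusted p 0.0312). Other known targets did not pass: Asns, asparagine synthetase, overlapped between groups (log2 fold change -0.22, adjusted p 0.452), and Trib3 was above wild type in all 3 knockout libraries (0.30, adjusted p 0.1096). Atf4 lies on chromosome 15, whose genes had a median log2 fold change of -0.24, and Psat1 and Eef1g on chromosome 19, with a median of -0.21. Without WT 1, WT 2 or WT 3, edgeR called 0 of the 65 related genes, with 17, 15 and 16 at an unadjusted p under 0.05. Shares of all genes at that unadjusted p are not given for these fits. The fewest calls over the whole table with 1 library left out also came from such a fit. The loss of these calls is therefore not shown to be particular to the related genes. Of 6 tested genes of eIF2 kinases and amino acid sensing 0 passed in edgeR (2 at an unadjusted p under 0.05) or limma-voom, while DESeq2 called Eif2ak3 higher. Eif2ak4, which encodes Gcn2, had a log2 fold change of -0.19 (adjusted p 0.581).

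Wars is known as an interferon-induced gene, so 7 interferon-response genes were set beside it. Of these, 2 rose, against the 3.54% of all genes called higher: Ifit1 from 4.78 ± 0.570 to 19.6 ± 8.08 CPM (log2 fold change 2.06, edgeR adjusted p 0.0250) and Ifit3 from 4.15 ± 0.161 to 10.6 ± 2.24 CPM (1.37, adjusted p 0.0167). DESeq2 called 5 of the 7 higher, adding Gbp2, Gbp3 and Isg15, where it called 15.3% of all genes in either direction. Wars had 58.9, 44.4 and 60.3 CPM in wild type and 50.4, 41.9 and 47.4 CPM in KO 2, KO 9 and KO 22. The groups overlapped, with a log2 fold change of -0.20 (adjusted p 0.448).

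Promoter windows from RefSeq (GRCm38.p6, 250 bases before to 50 after each start) matched 27 of the 37 genes. The sequence TGATGNAA, the core of the element bound by Atf4 with a C/EBP partner, was searched on both strands, where N is any base. Here and for the sequences below, a gene counted once if any of its windows matched, while percentages count single windows, so the units differ. TGATGNAA lay in a window of 5 of the 27 genes, Aars, Gars, Iars, Tars and Yars, all cytosolic, and in 3.97% of 32851 windows. In 3 of them it lay before the start, and the stretches around it are printed here 5′ to 3′ on the gene's strand, with the match, read on the opposite strand, in capitals:

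Aars, chr8:111033694-111033773, plus strand: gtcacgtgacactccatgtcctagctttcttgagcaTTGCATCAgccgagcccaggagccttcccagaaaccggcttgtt

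Gars, chr6:55037935-55038000, plus strand: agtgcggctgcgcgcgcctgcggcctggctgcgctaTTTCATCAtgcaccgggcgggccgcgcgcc

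Tars, chr15:11399659-11399709, minus strand: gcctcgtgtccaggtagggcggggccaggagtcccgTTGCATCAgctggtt

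The match began 112, 30 and 15 bases before the start of Aars, Gars and Tars. In Yars (TGATGCAA) and Iars (TTGCATCA) it lay just after the start, and Aars held another match (TTTCATCA) there. The log2 fold changes of these 5 genes were 0.08 for Aars, -0.02 for Gars, -0.08 for Iars, -0.39 for Tars and -0.35 for Yars, so genes with the match lay at both ends of the cytosolic set. The E-box CACGTG lay in windows of 5 of the 27 genes, Aars, Ears2, Farsb, Iars and Tars, and in 7.15% of windows; the cAMP-response sequence TGACGTCA lay in 0 of 27 and in 1.79%. A match is a run of letters, and binding was not measured.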

How the data were processed

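Per the labels' protocols, RNA was extracted with TRIZOL and sequenced by BGI after polyA selection. The submitters' processing notes name StringTie 1.3.3, HISAT2 2.1.0, Trimmomatic 0.36, SAMtools 0.1.19, FastQC 0.11.3 and DESeq2 1.32.0, and mm10 and GRCm38 as builds. Settings, strand use and annotation: not given in the sources used here. All values in the authors' tables are estimated counts in whole numbers: a gene table and a transcript table of all reads, and a gene table of reads split by genome. Of 55487 genes, 55227 matched GENCODE M21 (GRCm38), which gave coordinates and transcript types.

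The counts of 6 libraries were fitted with edgeR 4.0.16 (R 4.3.3): TMM scaling, the default filter on low counts, the quasi-likelihood test and Benjamini-Hochberg adjustment over all tested genes, called under 0.05. TPM was computed from transcript counts and annotated lengths. Allelic ratios were fitted in edgeR as an interaction of allele with group beside library terms, where a gene averaged at least 20 assigned counts per library. DESeq2 1.42.0 and limma 3.58.1 were alternatives, with other scaling, no filter, chromosome medians taken out and each library left out. The methods were tested on simulated data. At gene level, 17 of 100 genes changed 2-fold and 65 of 100 changed 4-fold were called, among 16678 genes. For the allelic ratio, 4 of 100 changed 2-fold and 77 of 100 changed 4-fold were called, among 12984 genes. Most 2-fold changes were thus missed in that setting, so a gene not called is not shown to be unchanged. A symbol listed under more than one identifier took the one with the most counts.

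The members, gene lists and tests were chosen with earlier results of these data known. Full statistics went to the 4 largest differences in each compartment and to genes whose groups did not overlap, the latter chosen after the values were seen; in related lists, to called genes and up to 3 with the smallest p. Other genes named were chosen after their values were seen. Reads of overlapping genes, such as Hars and Hars2, Mars1 and Ddit3, Iars2 and Rab3gap2, Cars2 and Naxd, Fars2 and Nrn1, or Aars and Exosc6, cannot be told apart if strand was not used. The symbol Gcn1l1 was not found in the table. The values of 1 gene are not reported here by name.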

Additional observations from a re-analysis of the deposited data

How the results depend on the processing

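For 1123 genes called over the whole table, DESeq2 gave 2558, no filter on low counts 396, and leaving out 1 library 45 to 2482; fewer samples and more tests enter those fits. Cytosolic synthetases called lower numbered 3 by DESeq2, 2 with chromosome medians taken out and 0 to 2 with 1 library left out; mitochondrial ones numbered 2 by DESeq2 and 0 to 3 with 1 library left out. No synthetase was called higher under any of these settings. Related genes called lower, 5 in the fit reported, were 2 without the filter and 0 to 8 with 1 library left out. Besides those 5, DESeq2 called Eef1d and Cebpb lower, and limma-voom with a weight per group called Cebpb lower. Related genes called higher, 2 in the fit reported, were 6 by DESeq2, 1 without the filter and 0 to 7 with 1 library left out. They were 4 by limma-voom with a weight per group, which was chosen after the spread was seen. Allelic calls, 2992 over all genes and 16 synthetases, were 72 and 0 with the neighbourhood's share taken out, and 1710 to 3822 and 10 to 16 with 1 library left out.

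Some small log2 fold changes turned sign. With 1 library left out they ran from -0.079 to 0.024 for Kars, -0.31 to 0.00080 for Dars, -0.12 to 0.14 for Yars2, -0.083 to 0.14 for Hars2, -0.0096 to 0.29 for Iars2, -0.16 to 0.081 for Eprs and -0.17 to 0.074 for Gars. With chromosome medians taken out they were -0.13 for Yars2, -0.0056 for Cars2 and -0.12 for Aars. With the neighbourhood's share taken out, log2 allelic ratios turned to 0.37 for Yars, -0.69 for Wars2, 0.26 for Farsa, -0.087 for Mars1, -0.058 for Sars, 0.0083 for Cars2, -0.16 for Hars2, 0.15 for Wars, 0.011 for Vars2 and 0.024 for Aars2. With 1 library left out they ran from -0.28 to 0.097 for Yars, -0.32 to 0.12 for Farsa, -0.97 to 0.0029 for Rars, -0.21 to 0.28 for Hars2 and -0.41 to 0.66 for Pars2. The cause was not tested.

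No paired analysis was possible because the wild-type columns carry the numbers 1, 2 and 3 and the knockout columns 2, 9 and 22, so the groups share fewer than 2 numbers. The lowest synthetase count in any library was 141 (Pars2, KO 2).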
